A study of Mus musculus with 7 samples.

Results

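The transcripts of 10 mast cell and basophil genes (Kit, Cpa3, Mcpt4, Mcpt8, Tpsb2, Tpsab1, Fcer1a, Ms4a2, Hdc and Gata2) were followed in type 2 innate lymphoid cells (ILC2s) sorted from the mouse heart. The members were chosen by name, and all 10 of 10 were found among the 55335 gene identifiers of the deposited tables. Cells positive for CD45 and for the interleukin 33 receptor ST2 and negative for lineage markers had been sorted from naive hearts (3 libraries) and from cardiac allografts (4 libraries). The allografts were Balb/C hearts transplanted into C57BL/6 recipients, a model that develops acute rejection, and were taken on day 7. The naive samples carry the same label of 7 days, and what it refers to there is not given in the sources used here. Cells of 4 to 7 hearts were pooled for a library, and the pool is the replicate. No genotype was given for either group. The strain, age and sex of the animals that gave the naive hearts were not given in the sources used here, and the markers behind the lineage gate were not named. The p-values measure the spread between these pools.

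Mast cells and basophils are granule-bearing cells of type 2 immunity that carry the high-affinity receptor for immunoglobulin E (IgE), called FcεRI. When the receptor is cross-linked, they release histamine and proteases from granules and make lipid mediators and cytokines. Mast cells live in tissues, including the heart, and depend on the receptor tyrosine kinase KIT, whereas basophils circulate and enter inflamed tissue. Both cell types can carry ST2, and ST2-positive mast cells could therefore pass a gate on CD45 and ST2 unless the lineage markers remove them. ILC2s share some of these transcripts, among them Kit in some tissues.

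Total counts lay between 29107326 and 53044907 per library. Genes with at least 1 count numbered 15820, 20254 and 13864 in naive replicates 1 to 3 and 19235 to 21354 in the allografts. Absence from the cells is therefore not shown by 0 counts in a naive library. A gene with 0 counts could hold up to 3, which corresponds to 0.0566 to 0.103 CPM (a gene's counts scaled to the same total count in every library), and this floor covers counting error only. Naive replicate 2 stood apart from the other libraries before any result is considered. The 12 ILC2 genes on a marker list, which includes Gata3, Il1rl1, Il7r and Id2, summed to 1164 CPM there, against 11583 and 15293 CPM in naive replicates 1 and 3 and 11391 to 12125 CPM in the allografts. Of the 1164 CPM, Id2 alone held 977. Gata3, Il1rl1 and Il7r were at 34.8, 6.79 and 20.1 CPM in naive replicate 2, and at 654, 343 and 326 CPM or more in every other library. The 5 kidney tubule genes summed to 5399 CPM in naive replicate 2 and to at most 73.5 CPM in any other library, and 6 endothelial genes to 478 CPM against at most 46.4 CPM. The fold changes of the 9 members tested are therefore also given without that library and without naive replicate 3, in which Kit and Tpsab1 were highest.

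Transcripts of the 10 genes were present at a similar summed level in all 4 allograft libraries and at widely different levels in the naive libraries. Their summed level was 362, 103 and 730 CPM in naive replicates 1 to 3. It was 300 (299.8), 283, 313 and 281 CPM in allograft replicates 1 to 4. The group means were 398 ± 315 CPM (SD, n = 3) and 294 ± 15.1 CPM (SD, n = 4), a log2 ratio of -0.44. Leaving out naive replicate 2 gave -0.89 and leaving out naive replicate 3 gave 0.34, so the sign rested on naive replicate 3. Kit alone held 424 of the 730 CPM in that library, against 21.1 of 362 and 50.4 of 103 CPM in naive replicates 1 and 2. The ratio without Kit was not calculated. Relative to the ILC2 genes, a scale described further on, the log2 ratio was -1.16. On that scale the members summed to 3.12%, 8.88% and 4.77% in naive replicates 1 to 3 and to 2.46% to 2.61% in the allografts. Naive replicate 2, low in ILC2 genes, therefore weighed most in the naive mean, and the ratio without it was not calculated. In bulk RNA, fewer cells of a type and less RNA per cell cannot be told apart.

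**Figure D1:**
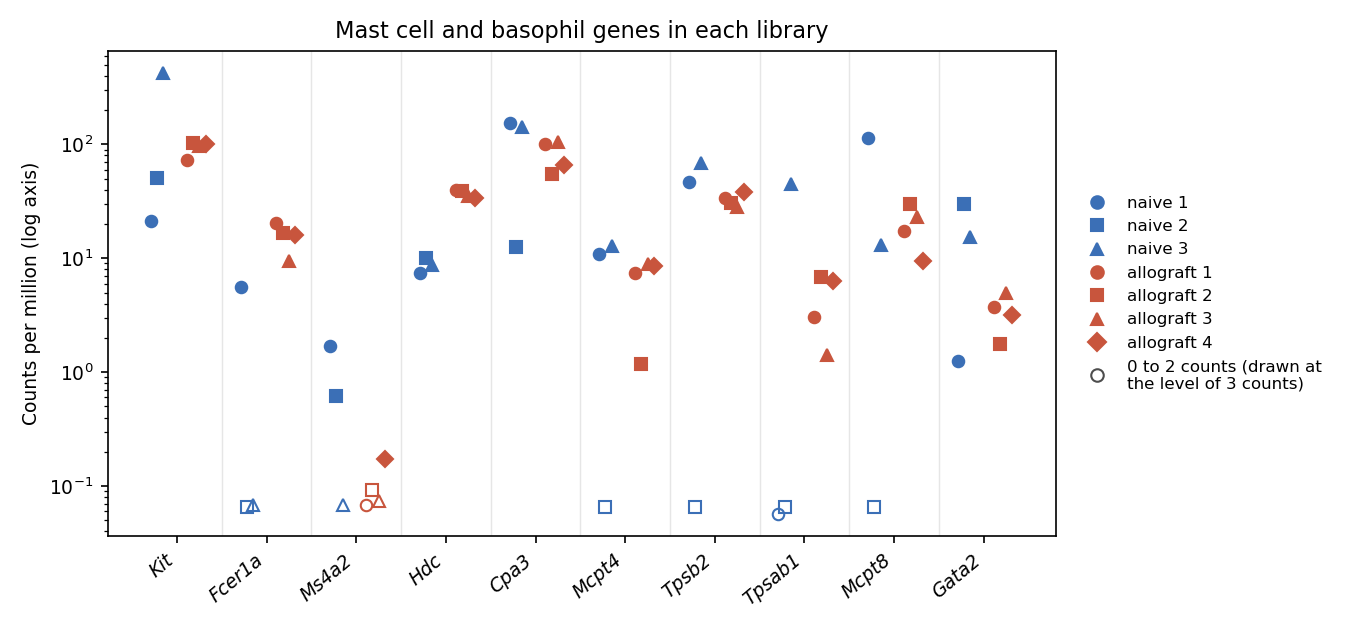
Level of each of the 10 genes in every library, in CPM on a log axis, with naive libraries in blue and allografts in red and a marker shape for each replicate. Open symbols are values of 0 to 2 counts drawn at the level of 3 counts; the allograft points lie close together for most genes, while the naive points of Kit, Mcpt8, Tpsab1 and Gata2 are far apart.

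None of the members passed the test between the groups. The quasi-likelihood test of edgeR with Benjamini-Hochberg adjustment over 17015 genes called 6 genes (0.0353%) at an adjusted p under 0.05, and 0 of the 9 members that passed its filter on low counts. Ms4a2 did not pass that filter. At an unadjusted p under 0.05 there were 2 of the 9 members, Hdc higher and Gata2 lower in allografts, where 10.3% of all genes tested lay (6.41% higher and 3.86% lower). DESeq2, which called 6.66% of the genes to which it gave an adjusted p, called 1 member, Hdc. Of the 9 members tested, 2 had a positive and 7 a negative log2 fold change, with a median of -0.37 against -0.01 over all genes tested. Every allograft library lay above every naive library in CPM for 2 of the 10 members, Hdc and Fcer1a, where 12.5% of all genes tested did so. In 0 of the 10 did every allograft lie below every naive library, where 2.15% of all genes did.

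Among the receptors, Kit encodes the receptor for stem cell factor on which mast cells depend. Kit (ENSMUSG00000005672, chr5:75574916-75656722 in mm10) had 21.1, 50.4 and 424 CPM in naive replicates 1 to 3. In allograft replicates 1 to 4 it had 73.0, 103, 96.7 and 100.1 CPM. The allografts lay between the second and the highest naive library, so the groups overlapped. Its log2 fold change, allograft over naive, was -0.95 (SE 0.86, edgeR adjusted p = 0.809). It was -1.33 (edgeR adjusted p = 0.460) with naive replicate 2 left out and 0.97 (0.380) with naive replicate 3 left out. The naive libraries spanned 20.1-fold and the allografts 1.41-fold, whereas the median gene with counts in every library spanned 4.76-fold and 1.63-fold.

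FcεRI is built from an alpha chain that binds IgE (Fcer1a), a beta chain that amplifies the signal (Ms4a2) and a gamma chain shared with other receptors (Fcer1g). Fcer1a (ENSMUSG00000005339, chr1:173221284-173227214) had 5.60 CPM in naive replicate 1 and 0 counts in naive replicates 2 and 3. It had 20.3, 16.8, 9.42 and 16.0 CPM in the 4 allografts, all above the highest naive library. The log2 fold change was 3.07 (SE 2.15, edgeR adjusted p = 0.735), higher in 4 of 4 allografts without passing the test. Of 12 alternative fits, Fcer1a passed in 1, that without naive replicate 1, whose remaining naive libraries had 0 counts (edgeR adjusted p = 0.0415, where 0.568% of all genes passed). The fold change was 2.46 (edgeR adjusted p = 0.514) with naive replicate 2 left out and 2.49 (0.515) with naive replicate 3 left out.

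Ms4a2 (ENSMUSG00000024680, chr19:11615523-11623719) was at or near 0. It had 1.70, 0.615 and 0 CPM in naive replicates 1 to 3, 0 counts in allograft replicates 1 to 3 and 0.172 CPM in allograft replicate 4. Thus the allografts held the alpha chain at 9.42 CPM or more with the beta chain at 5 counts or fewer. Fcer1g, which macrophages and other cells also express, had 5.26, 46.6 and 82.7 CPM in the naive and 91.0 to 120 (120.1) CPM in the allograft libraries. Its log2 fold change was 0.94 (SE 0.78, edgeR adjusted p = 0.785).

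Hdc encodes histidine decarboxylase, the enzyme that makes histamine. In naive replicates 1 to 3, Hdc (ENSMUSG00000027360, chr2:126593667-126619299) had 7.41, 10.1 and 8.67 CPM. In allograft replicates 1 to 4 it had 39.8, 39.0, 35.5 and 33.5 CPM. The means were 8.72 ± 1.34 CPM (SD, n = 3) and 37.0 ± 2.95 CPM (SD, n = 4), and the groups did not overlap. It was the member with the narrowest naive range, 1.36-fold. The log2 fold change was 1.82 (SE 0.43, edgeR unadjusted p = 0.00352, adjusted p = 0.169), higher in 4 of 4 allografts. Hdc passed with DESeq2 (adjusted p = 0.00884) and without naive replicate 2 (edgeR adjusted p = 0.0433, where 3.1% of all genes passed). It did not pass with naive replicate 1 (0.119) or naive replicate 3 (0.154, where 0.0372% of all genes passed) left out. Over 12 alternative fits its adjusted p lay between 0.00884 and 1. Basophils, mast cells and neutrophils all can express Hdc. The 6 neutrophil markers summed to 0, 12.7 and 5.16 CPM in the naive and 74.7 to 124 CPM in the allograft libraries, and 9 eosinophil markers to 1.43 to 26.8 and 95.7 to 216 CPM. Of these, Csf3r, Cxcr2 and Mpo of neutrophils and Epx, Prg2, Prg3, Siglecf and Ear6 of eosinophils were at 0 in every naive library. In the allografts Csf3r, Cxcr2 and Mpo were at 0 to 2.45 CPM and at 0 in at least 2 of 4 libraries, and the neutrophil sum there came mostly from S100a8, S100a9 and Retnlg. Prg2 and Ear6 were found in all 4 allografts, Epx, Prg3 and Siglecf in 3 of 4. Their part in the level of Hdc was not tested.

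**Figure D2:**
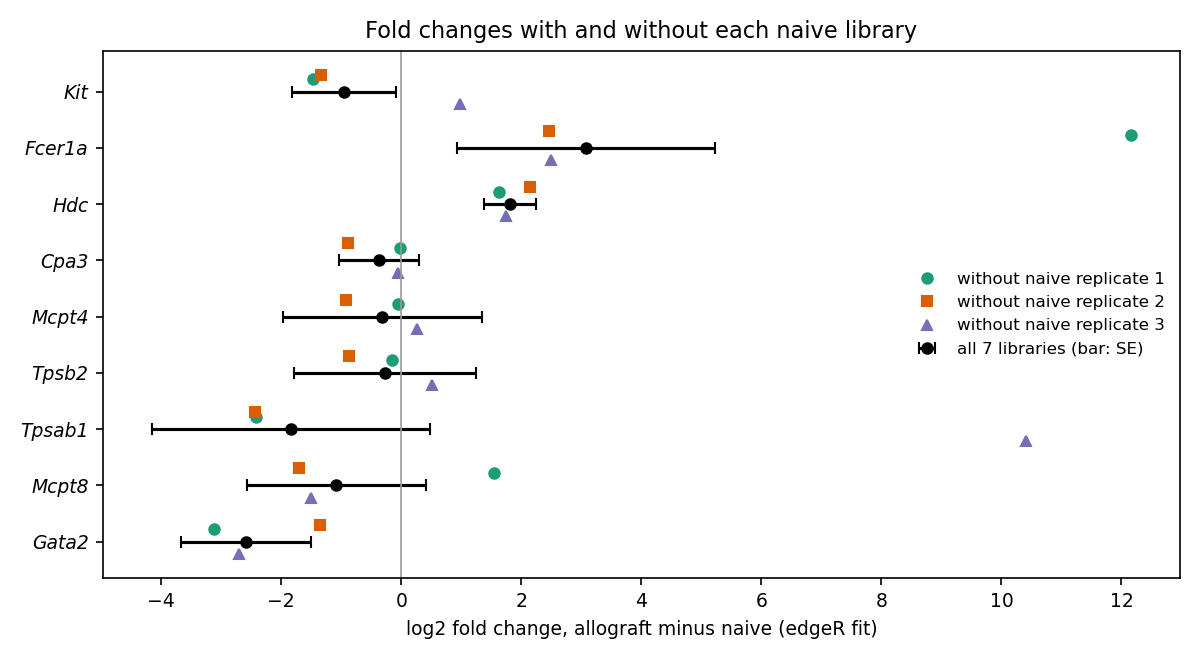
Log2 fold change, allograft minus naive, of the 9 members tested with edgeR, with all 7 libraries (black, bar is the standard error) and without each naive library in turn. Hdc stayed between 1.63 and 2.15, whereas Kit, Mcpt4, Tpsb2 and Tpsab1 changed sign without naive replicate 3 and Mcpt8 without naive replicate 1; the values above 10 for Fcer1a and Tpsab1 are fitted against libraries with 0 counts and depend on the fit's prior count.

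Among the granule proteases, Cpa3 encodes carboxypeptidase A3, which mast cells store in their granules and which basophils also express. In naive replicates 1 to 3, Cpa3 (ENSMUSG00000001865, chr3:20215620-20242181) had 153, 12.6 and 141 CPM. In allograft replicates 1 to 4 it had 101, 55.0, 105 and 65.7 CPM. The allografts all lay between the lowest naive library and the other naive libraries. The log2 fold change was -0.37 (SE 0.66, edgeR adjusted p = 0.930), -0.89 (0.221) with naive replicate 2 left out and -0.06 (0.979) with naive replicate 3 left out.

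Mcpt4 encodes the chymase that is characteristic of connective tissue mast cells of the mouse. Mcpt4 (ENSMUSG00000061068, chr14:56059629-56062313) had 10.95, 0 and 12.8 CPM in naive replicates 1 to 3. The allografts held 7.47, 1.17, 8.84 and 8.49 CPM, below both naive libraries that had the transcript. The fitted log2 fold change was -0.31 (SE 1.66, edgeR adjusted p = 0.982). It was -0.92 (0.604) with naive replicate 2 left out and turned to 0.26 (0.960) with naive replicate 3 left out. Of its 50-base words, 5.48% also occur in transcripts of Cma2 or Mcpt9, so a part of its reads could be assigned to those genes.

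The tryptases Tpsb2 (chr17:25366305-25369098) and Tpsab1 (chr17:25343245-25345562) are neighbouring trypsin-like proteases of mast cell granules. Tpsb2 (ENSMUSG00000033825) had 46.3, 0 and 69.3 CPM in the naive and 34.0, 30.3, 28.2 and 38.1 CPM in the allograft libraries. Naive replicates 1 and 3 exceeded every allograft and naive replicate 2 held no count. Tpsab1 (ENSMUSG00000024173) had 0, 0 and 45.2 CPM in the naive and 3.07, 6.88, 1.42 and 6.25 CPM in the allograft libraries. Naive replicate 3 was thus the only naive library with the transcript and had the highest level of all 7. The log2 fold changes were -0.27 (SE 1.51, edgeR adjusted p = 0.984) for Tpsb2 and -1.84 (SE 2.31, edgeR adjusted p = 0.875) for Tpsab1. With naive replicate 2 left out they were -0.88 (edgeR adjusted p = 0.2002) and -2.44 (0.543). Both changed sign with naive replicate 3 left out, to 0.51 (edgeR adjusted p = 0.909) and to 10.40 (0.139), the latter fitted against naive libraries with 0 counts. No 50-base word of either tryptase was shared with another gene's transcripts. In naive libraries 3 lung epithelium genes were found at a summed 631 CPM in replicate 3 and at 0.283 and 0 CPM in replicates 1 and 2, and in the allografts at 206 to 607 CPM. Their part in the level of Tpsab1 was not tested. In FPKM, Tpsb2 exceeded Tpsab1 2.02-fold in naive replicate 3 and 5.80-fold to 26.5-fold in the allografts.

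Mcpt8 encodes a serine protease that marks basophils of the mouse. Mcpt8 (ENSMUSG00000022157, chr14:56082166-56085273) had 114, 0.0440 and 13.1 CPM in naive replicates 1 to 3, the second of these being 2 counts. The allografts had 17.5, 30.0, 23.1 and 9.45 CPM. Naive replicate 1 alone exceeded the allografts, and its log2 fold change was -1.09 (SE 1.49, edgeR adjusted p = 0.893). Leaving out naive replicate 1 gave 1.54 (edgeR adjusted p = 0.641), leaving out naive replicate 2 gave -1.70 (0.298) and leaving out naive replicate 3 gave -1.51 (0.680).

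Scaled to gene length and depth as FPKM, the unit of the second deposited table, the order of the members was led by Cpa3 in both groups. In the allografts Cpa3 had 46.8 ± 14.3 FPKM (SD, n = 4), above the next gene, Tpsb2, in 4 of 4 libraries. Tpsb2 (17.7 ± 2.35), Mcpt8 (17.4 ± 7.59) and Fcer1a (13.5 ± 3.89) followed with overlapping ranges. Kit had 9.03 ± 1.35 FPKM, Mcpt4 5.07 ± 2.81, Hdc 5.003 ± 0.386 and Tpsab1 1.81 ± 1.08, and Gata2 and Ms4a2 were lowest at 0.539 ± 0.219 and 0.0108 ± 0.0215. The neighbours Cpa3 and Tpsb2, Kit and Mcpt4, Hdc and Tpsab1, and Gata2 and Ms4a2 had ranges that did not overlap, and the other neighbours in this order overlapped. In the naive libraries the order was Cpa3 (59.6 ± 45.1, n = 3), Mcpt8 (37.4 ± 55.0), Tpsb2 (21.3 ± 19.6), Kit (16.5 ± 22.3), Tpsab1, Mcpt4, Gata2, Fcer1a, Hdc and Ms4a2. There the ranges of all neighbours in the order overlapped except those of Hdc and Ms4a2.

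The mix of members differed between the naive libraries. Mcpt8 made up 43.3% of the summed FPKM of the 10 genes in naive replicate 1, 0.193% in naive replicate 2 and 5.57% in naive replicate 3, against 7.85% to 24.2% in the allografts. Kit made up 0.892%, 26.5% and 20.3% in the naive libraries and 5.48% to 9.29% in the allografts. Gata2 took 25.8% of the sum in naive replicate 2 and at most 1.21% elsewhere. Cpa3 kept a similar share in every library, 38.2% to 39.7% in the naive and 29.2% to 47.7% in the allograft libraries.

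**Figure D3:**
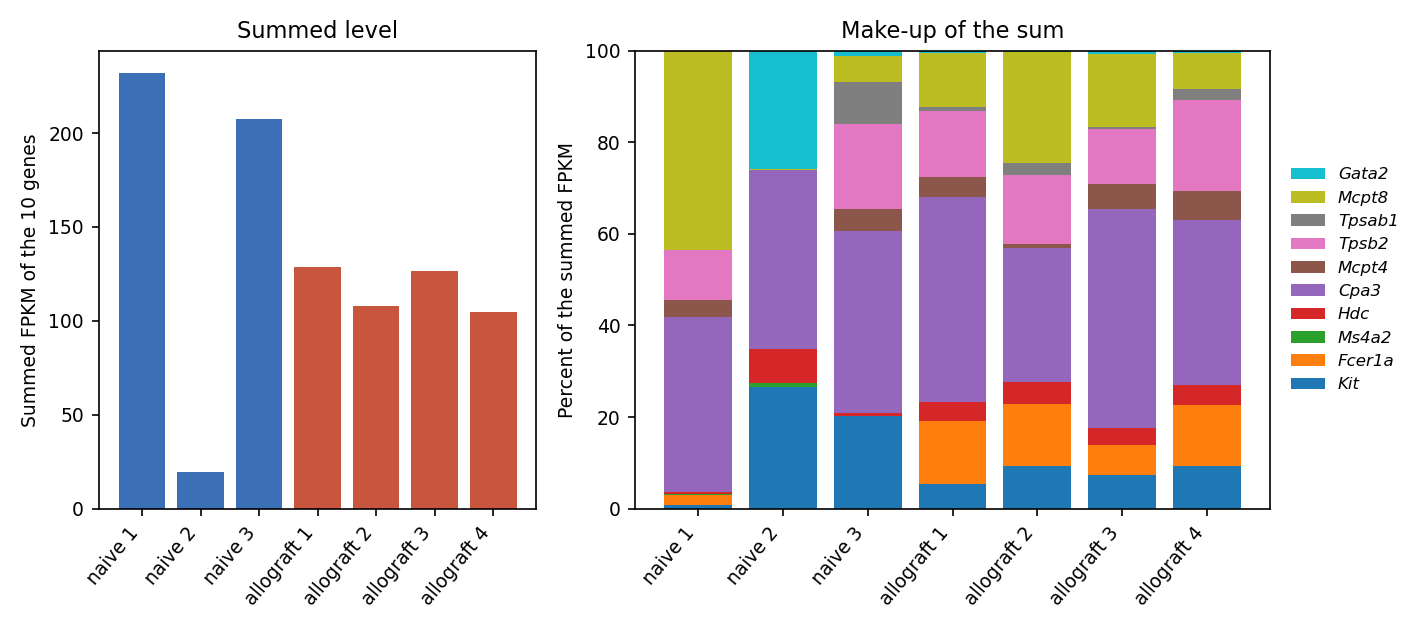
Left, summed FPKM of the 10 genes in each library; right, the percent of that sum held by each gene. Naive replicate 2 has the lowest sum, 19.5 FPKM, and the allografts have sums of 105 to 128 FPKM; Mcpt8 is the largest part in naive replicate 1, and Cpa3 is the largest part in every other library.

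Gata2, which encodes a zinc-finger transcription factor needed for mast cells and basophils, is also expressed by endothelial and blood progenitor cells. In naive replicates 1 to 3, Gata2 (ENSMUSG00000015053, chr6:88193891-88207032) had 1.26, 29.7 and 15.3 CPM. In allograft replicates 1 to 4 it had 3.75, 1.76, 4.99 and 3.16 CPM. Naive replicate 1 lay below and the other naive libraries above all allografts. The log2 fold change was -2.59 (SE 1.08, edgeR unadjusted p = 0.0452, adjusted p = 0.470), -1.35 (adjusted p = 0.510) with naive replicate 2 left out and -2.71 (0.301) with naive replicate 3 left out. The library highest in Gata2, naive replicate 2, was also highest in endothelial markers (478 CPM, against 31.2 and 8.26 CPM in naive replicates 1 and 3). It was highest in 6 haematopoietic progenitor markers too (131 CPM, against 4.41 and 5.64 CPM). The allografts held 32.5 to 46.4 CPM of the endothelial and 20.9 to 39.3 CPM of the progenitor markers. Both sums were above naive replicate 3, and Gata2 was lower in every allograft than in naive replicate 3. The allograft sums came mostly from single genes. Pecam1 held 29.4 to 39.1 CPM there (6.97 CPM in naive replicate 3) and Flt3 16.3 to 27.2 CPM (0 in naive replicate 3). The progenitor marker Hoxa9 went the other way, at 5.60 CPM in naive replicate 3 and 0 to 0.538 CPM in the allografts. The part of these markers in the level of Gata2 was not tested. Gata1, the related factor of mast cells and red cells, had 0 counts in all 7 libraries.

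GATA factors recognise a short core sequence, and the promoters of the members were searched for GATAA on both strands within 250 bases upstream of the RefSeq start. Of the 10 members, 8 matched the RefSeq table (GRCm38.p6), and 4 of the 8 held the motif: Cpa3, Mcpt4, Fcer1a and Ms4a2. In the whole table, 25.5% of 27025 genes held it in at least 1 promoter (22.6% of 32851 promoters). Those 4 windows are shown because they hold the motif, in lower case with GATAA or its reverse complement TTATC in capitals, each read 5′ to 3′ along the gene. The match nearest to the start began 45 bases upstream in Cpa3, 102 in Mcpt4, 92 in Fcer1a and 10 in Ms4a2, which held 3 matches. A match describes the letters and shows no binding. The levels of the 4 genes did not all move together, as Cpa3 and Fcer1a were at 141 CPM and 0 in naive replicate 3. Cpa3 and Mcpt4 did share their lowest library, naive replicate 2 (12.6 and 0 CPM). Among the allografts both were lowest in replicate 2 (55.0 and 1.17 CPM).
Cpa3 chr3:20242182-20242431 (- strand): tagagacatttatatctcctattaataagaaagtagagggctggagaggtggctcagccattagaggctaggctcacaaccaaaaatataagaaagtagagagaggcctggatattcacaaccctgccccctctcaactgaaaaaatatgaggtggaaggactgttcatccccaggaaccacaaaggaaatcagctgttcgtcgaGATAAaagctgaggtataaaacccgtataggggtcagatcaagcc
Mcpt4 chr14:56062311-56062560 (- strand): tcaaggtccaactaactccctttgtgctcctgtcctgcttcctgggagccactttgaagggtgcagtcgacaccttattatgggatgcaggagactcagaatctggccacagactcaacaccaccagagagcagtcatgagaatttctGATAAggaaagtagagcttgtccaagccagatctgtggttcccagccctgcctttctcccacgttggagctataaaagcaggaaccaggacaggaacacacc
Fcer1a chr1:173227230-173227479 (- strand): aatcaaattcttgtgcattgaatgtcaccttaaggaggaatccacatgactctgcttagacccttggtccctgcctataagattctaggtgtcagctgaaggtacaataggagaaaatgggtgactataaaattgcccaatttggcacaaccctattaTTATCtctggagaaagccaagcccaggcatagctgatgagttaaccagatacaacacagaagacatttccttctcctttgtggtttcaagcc
Ms4a2 chr19:11623720-11623969 (- strand): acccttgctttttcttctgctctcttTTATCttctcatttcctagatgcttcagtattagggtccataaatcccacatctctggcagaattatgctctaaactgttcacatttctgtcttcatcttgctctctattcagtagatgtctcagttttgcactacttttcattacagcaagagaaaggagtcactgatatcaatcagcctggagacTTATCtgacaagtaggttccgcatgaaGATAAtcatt

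The other genes of mast cells and basophils were 49 genes in 6 lists, of which 41 were tested with edgeR and 0 passed in either direction. DESeq2 called 5 of them, where it called 6.66% of all genes to which it gave an adjusted p. At an unadjusted p under 0.05 there were 6 with edgeR, all higher in allografts, where 6.41% of all genes tested were. Of the 49, 10 had 0 counts in every naive library and 4 of those (Mrgprb1, Mrgprb2, Gata1 and Il3) in every library. Of the 41 tested genes, 4 (Ctsg, Prss34, Itga2 and Lyl1) had 0 counts in every naive library, as 3.66% of all genes tested had. The lists also hold genes that ILC2s express, among them Il4, Il6, Il9r and the sort marker Il1rl1.

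Among 8 other mast cell proteases and receptors, 4 were tested, 0 passed, and 2 had a positive and 2 a negative log2 fold change. Cma1, the other chymase of connective tissue mast cells, had 81.9, 1.98 and 67.4 CPM in the naive and 51.4 to 64.4 CPM in the allograft libraries (log2 fold change 0.12, SE 0.86, edgeR adjusted p = 0.989). Mcpt1 and Mcpt2, proteases of mucosal mast cells, were found in 1 naive library, replicate 1, at 63.5 and 32.7 CPM. In the allografts they ran from 2.33 to 6.49 CPM and from 0.525 to 2.62 CPM (edgeR adjusted p = 0.835 and 0.796). Mrgprb1 and Mrgprb2, receptors of connective tissue mast cells, were at 0 in all 7 libraries, and the floor of 3 counts allows at most 0.103 CPM. Ctsg encodes the granule protease cathepsin G of neutrophils and mast cells. It had 0 counts in the naive libraries and 1.86 to 4.80 CPM in the allografts (edgeR adjusted p = 0.144). The allograft mean was at least 43.7-fold higher than a floor of 3 counts per naive library. Ctsg passed with DESeq2 and without naive replicate 2 (edgeR adjusted p = 0.0440, where 3.1% of all genes passed).

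Of 6 other basophil genes, 6 were tested, 0 passed, and 5 had a positive log2 fold change. Prss34, a protease of mouse basophils and mast cells, had 0 counts in the 3 naive libraries and 7.00, 11.4, 13.6 and 13.9 CPM in the allografts. The allograft mean was at least 180-fold (179.9) higher than a floor of 3 counts per naive library. All 4 allografts lay above the naive libraries (edgeR adjusted p = 0.144). Prss34 passed with DESeq2 (adjusted p = 1.6e-14) and without naive replicate 1 (edgeR adjusted p = 0.0474, where 0.568% of all genes passed). It also passed without naive replicate 2 (edgeR adjusted p = 0.0336, where 3.1% of all genes passed). Itga2, the integrin subunit CD49b carried by basophils and natural killer cells, had 0 counts in naive libraries and 6.57 to 11.9 CPM in allografts (edgeR adjusted p = 0.144). The allograft mean of Itga2 was at least 138-fold higher than that floor. Itga2 passed with DESeq2 (adjusted p = 1.7e-13) and with naive replicate 2 left out (edgeR, 0.0344). Cd200r3, a receptor of basophils and mast cells, had 70.6 CPM in naive replicate 1, 0 in the other naive libraries and 0.977 to 3.18 CPM in the allografts (edgeR adjusted p = 0.739). Naive replicate 1, the library highest in Mcpt8, Mcpt1, Mcpt2 and Cd200r3, thus held no count of Prss34. Il4 had 32.3, 0.901 and 44.0 CPM in naive and 52.4 to 74.0 CPM in allograft libraries (edgeR adjusted p = 0.743), and Il6 had 154, 0.176 and 28.997 CPM and 122 to 130 (130.1) CPM (0.883). Ctsg, Itga2 and Cd200r3 were chosen after their values were seen.

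**Figure D4:**
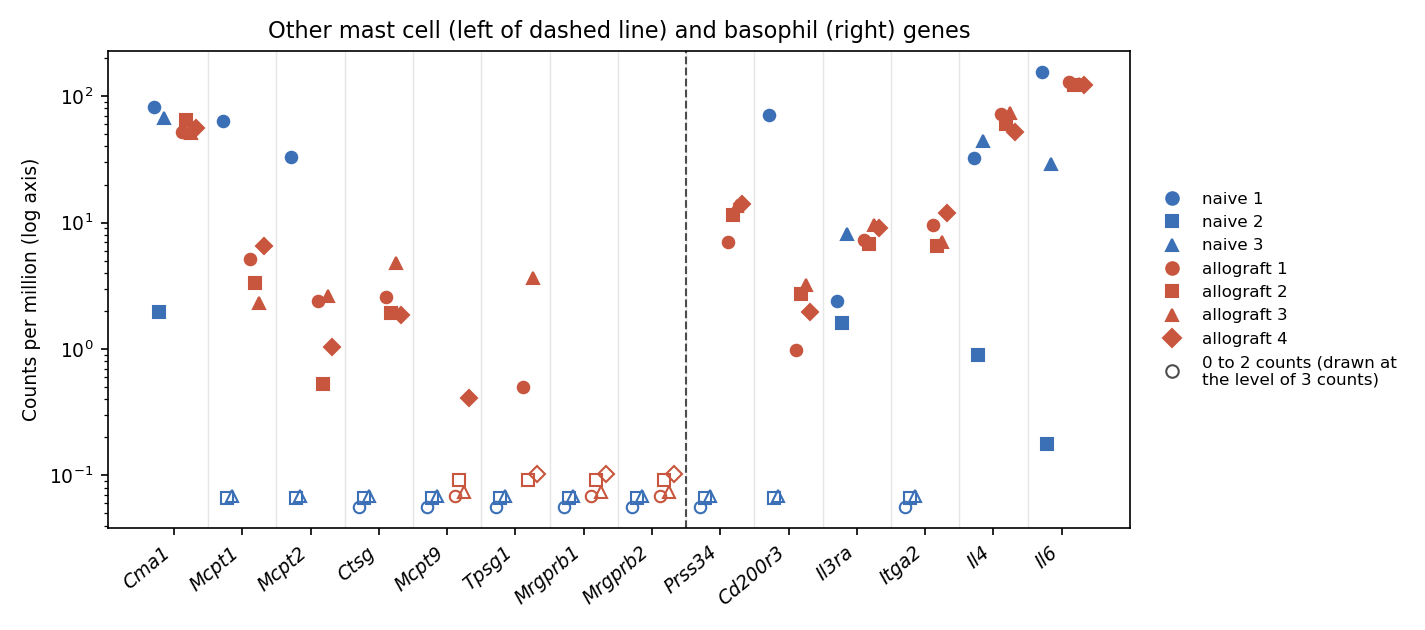
Level of 8 other mast cell genes and 6 other basophil genes in every library, in CPM on a log axis, with open symbols for 0 to 2 counts drawn at the level of 3 counts. Prss34, Itga2 and Ctsg are seen in the 4 allografts and in no naive library, Mcpt1, Mcpt2 and Cd200r3 are highest in naive replicate 1, and Mrgprb1 and Mrgprb2 are at 0 throughout.

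Of the 10 genes of IgE receptor signalling, 10 were tested and 0 passed, with 7 positive log2 fold changes. Lat, the adaptor that links the receptor to phospholipase C, had 231, 20.2 and 629 CPM in naive and 282 to 318 CPM in allograft libraries (log2 fold change -0.05, edgeR adjusted p = 0.996). The kinase gene Fyn had 71.5, 17.0 and 91.9 CPM and 118 to 154 CPM (1.04, adjusted p = 0.513, higher in 4 of 4). T cells and ILC2s express both. Syk, the kinase that binds the gamma chain, had 1.62, 0.725 and 0 CPM in naive and 10.2 to 14.7 CPM in allograft libraries (3.80, SE 1.58, edgeR unadjusted p = 0.0452, adjusted p = 0.470). Syk was chosen after its values were seen, and B cells also express it. The 6 B cell markers summed to 25.2 to 265 CPM in naive and 315 to 482 CPM in allograft libraries, and their part in the level of Syk was not tested.

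Of 10 genes of granule storage and mediator synthesis, 9 were tested and 0 passed, with 4 positive and 5 negative log2 fold changes. Srgn, the granule proteoglycan serglycin, was abundant, with 2697, 170 (169.6) and 2650 (2650.1) CPM in naive and 2517 to 3194 CPM in allograft libraries (0.57, edgeR adjusted p = 0.885). Ptgs2, the inducible cyclooxygenase, had 164, 4.70 and 173 CPM and 96.2 to 113 CPM (-0.15, adjusted p = 0.984). Alox5ap, which presents arachidonic acid to 5-lipoxygenase, had 63.3, 5.58 and 19.1 CPM and 28.9 to 62.8 CPM (0.53, adjusted p = 0.879). In these 3 genes naive replicate 2 was the lowest library.

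Of 9 transcription factors, 7 were tested and 0 passed, with 5 positive log2 fold changes. Stat5a, which acts below KIT and the interleukin 3 receptor, had 22.02, 7.72 and 18.6 CPM in naive and 36.5, 76.4, 67.3 and 63.8 CPM in allograft libraries. Its log2 fold change was 1.79 (SE 0.42, edgeR unadjusted p = 0.00310, adjusted p = 0.161, higher in 4 of 4), and it passed with DESeq2 (adjusted p = 8.3e-04). Stat5b had a log2 fold change of 0.73 (edgeR adjusted p = 0.779) and Runx1, a factor of blood cell development, one of 1.03 (adjusted p = 0.757). Lyl1, chosen after its values were seen, had 0 counts in naive and 0.954 to 2.91 CPM in the allografts (edgeR adjusted p = 0.144). The allograft mean of Lyl1 was at least 27.3-fold higher than a floor of 3 counts per naive library. Lyl1 passed with DESeq2 (adjusted p = 7.0e-06). Of the 6 growth factor and receptor genes, 5 were tested and 0 passed. Kitl, the ligand of KIT, had 11.01, 21.98 and 0 CPM in naive and 0 to 1.88 CPM in allograft libraries (-3.91, SE 2.23, edgeR adjusted p = 0.658). Il9r had 80.2, 0.176 and 104 CPM and 46.5 to 72.7 CPM (-0.13, adjusted p = 0.992), and Il1rl1, which encodes ST2, had 745, 6.79 and 343 CPM and 523 to 756 CPM (0.82, adjusted p = 0.875).

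Since naive replicate 2 was low in ILC2 genes, the members were also set against the summed CPM of the 12 ILC2 genes of the same library, a scale chosen after the data were seen. Cpa3 was 1.32%, 1.08% and 0.921% of that sum in naive replicates 1 to 3 and 0.832%, 0.477%, 0.877% and 0.577% in the allografts. The 7 libraries spanned 2.77-fold on this scale and 12.2-fold in CPM, and every allograft lay below every naive library, as for 4.88% of all genes on this scale (4.77% lay above). In naive replicate 2, however, Id2 alone held 977 of the 1164 CPM of the ILC2 sum. It held 5509 of 11583 and 7565 of 15293 CPM in naive replicates 1 and 3. In the allografts it held 4338 to 5445 CPM of sums of 11391 to 12125 CPM. The narrower span of Cpa3 thus depends on Id2, and the scale without Id2 was not calculated. Kit spanned more on this scale than in CPM (23.7-fold against 20.1-fold). Hdc was 0.0640%, 0.867% and 0.0567% in the naive and 0.294% to 0.339% in the allograft libraries, so that naive replicate 2 lay above the allografts and the groups overlapped. All members together were 3.12%, 8.88% and 4.77% of the ILC2 sum in naive and 2.46% to 2.61% in allograft libraries.

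**Figure D5:**
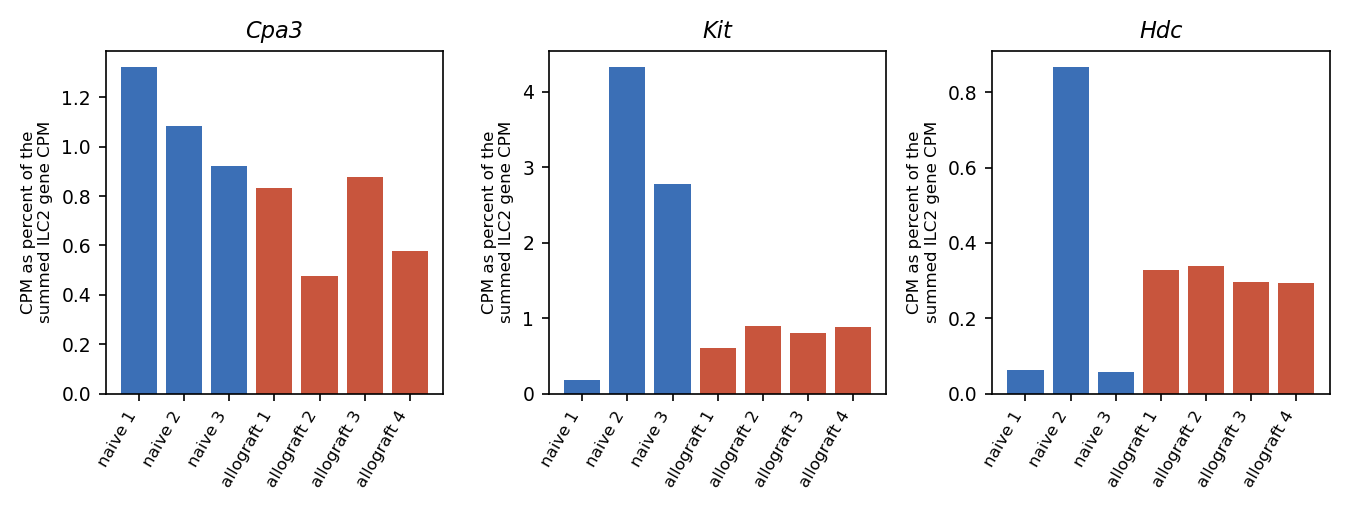
CPM of Cpa3, Kit and Hdc as a percent of the summed CPM of 12 ILC2 genes in each library, naive in blue and allograft in red, with axes from 0. Cpa3 lies between 0.477% and 1.32% in all 7 libraries, while Kit and Hdc are highest in naive replicate 2. In that library Id2 alone holds 977 of the 1164 CPM of the ILC2 sum.

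The genes whose pattern over the 7 libraries was nearest to Cpa3, by the root mean square difference of log2 CPM centred on each gene's own mean, were Psmb9 (0.16), Hs3st1 (0.23), Ppp1cc (0.23) and Gabpb1 (0.23), among 16662 genes with a symbol. These 4 were lowest in naive replicate 2, as Cpa3 was. No member was among the 10 nearest, and Kit, the nearest member, was at 1.498. Nearest to Mcpt8 were Bves (0.61), Amph (0.64), 4930427A07Rik (0.65), Nmur1 (0.70) and Knstrn (0.74), all with 0 counts in naive replicate 2 and their highest level in naive replicate 1. Tpsb2 was the member nearest to Mcpt8, at 1.303. These are descriptions over libraries that share their low naive replicate 2.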

How the data were processed

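RNA of sorted ILC2s was measured in 3 naive and 4 allograft libraries. Full-length cDNA was amplified before library construction, per the labels' protocols, which name no molecular identifiers. The authors deposited whole-number counts per gene and FPKM for 55335 identifiers. FastQC 0.11.5, STAR 2.5.3a, StringTie 1.3.1c, DESeq2 1.16.1 and the build mm10 are named, without roles, in the submitters' processing notes. The annotation and the use of strand are not given in the sources used here. Over 7340 genes with at least 100 counts everywhere, log2 FPKM over CPM was constant within a library up to an SD of 0.00352 about each gene's mean. No 2 libraries were identical.

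CPM are per deposited total, without TMM. The counts of all 7 libraries were fitted with edgeR 4.0.16 (R 4.3.3, TMM, filterByExpr, quasi-likelihood, Benjamini-Hochberg at 0.05). Alternatives were DESeq2 1.42.0, its size factors in edgeR, a fit of all genes with counts, a minimum mean of 50 counts, a replicate block and leaving out each library. Both tools were checked on simulated data with the same spread in every library. That check does not cover a divergent library such as naive replicate 2. The standard error is the log2 fold change over the root of F. Loci and 50-base words come from GENCODE M21. Members and lists were chosen with earlier results of these data known. The genes named are the members, up to 3 genes a list with the highest mean FPKM, genes past the threshold and the 5 nearest genes (1 is not reported here), with others marked as chosen later. Identifiers without a symbol held 0.243% of the counts and were kept.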

Additional observations from a re-analysis of the deposited data

Results flagged for a closer look

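Of 42 values looked at in the allografts, 4 had a single library well away from the other 3 (Dixon's criterion, which chance meets in about 1 of 20 groups, or 2.1 of 42). Ms4a2 had 0.172 CPM (5 counts) in allograft replicate 4 and 0 counts in the other allografts. With the others tied at 0, any count above 0 meets the criterion, so this flag carries no weight. The neutrophil markers summed to 124 CPM in allograft replicate 1 against 74.7 to 82.7 CPM in the others. The macrophage and monocyte markers summed to 257 CPM in the same library against 163 to 176 CPM. The B cell markers summed to 315 CPM in allograft replicate 4 against 460 (459.9) to 482 CPM.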

How the results depend on the processing

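The number of all genes past the threshold was 6 in the main analysis and 1012 with DESeq2. It was 0 with a replicate block, and ran from 0 to 560 with 1 library left out (107, 560 and 7 for naive replicates 1, 2 and 3, and 0 for each allograft). The number of members past it was 0, or 1 with DESeq2, and ran from 0 to 1 with 1 library left out. For the other mast cell and basophil genes it was 0, or 5 with DESeq2, and ran from 0 to 5. Of 108 alternative values for single members, 93 kept their direction and side of the threshold, 12 changed sign and 3 newly passed. With 1 library left out the log2 fold change ran from -1.48 to 0.97 for Kit, -0.92 to 0.26 for Mcpt4, -1.70 to 1.54 for Mcpt8, -0.88 to 0.51 for Tpsb2, -2.44 to 10.40 for Tpsab1, -0.46 to 0.61 for Cma1, -0.74 to 0.52 for Il9r, -0.60 to 1.19 for Lat, -2.89 to 10.31 for Mcpt1, -3.33 to 8.91 for Mcpt2 and -0.73 to 0.31 for Ptgs2. Each sign change came without naive replicate 1, 2 or 3, apart from Mcpt4 without allograft replicate 2 (0.04).

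In the fit with the replicate block the sign changed for Kit (0.079), Cpa3 (0.13), Mcpt4 (0.91), Mcpt8 (1.10), Tpsb2 (0.72), Tpsab1 (7.23), Il9r (0.78), Lat (0.78), Mcpt1 (6.28), Mcpt2 (5.29) and Ptgs2 (0.51). It called 0 genes (252 at an unadjusted p under 0.05), and allograft replicate 4, with no partner, adds nothing to it. The deviations of same-numbered libraries correlated at 0.0169, -0.0196 and 0.0360, and not every library correlated best with its own number. These values show no pairing by number, but so few libraries cannot exclude one. The cause of these changes was not tested. A prior count of 0.5 in place of the main one kept 5 of the 10 genes nearest to Mcpt8. The limits are 3 naive pools that differ widely, of which 1 is low in ILC2 genes. Fewer genes were detected in naive replicates 1 and 3 than in any allograft. A gene at 0 in a naive library is thus not shown to be absent from heart ILC2s.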
